A study of Mus musculus with 8 samples.

Results

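The genes for the DEAD and DEAH box RNA helicases were examined for N6-methyladenosine (m6A) in mouse embryonic stem cells (ESCs). They were taken as every protein-coding gene of GENCODE release M21 (genome build mm10, GRCm38), without chromosome Y, whose symbol is Ddx or Dhx followed by a number. This gave 52 genes of 21845, of which 36 carry a Ddx and 16 a Dhx symbol. The values come from MeRIP-seq, in which fragmented poly(A) RNA is pulled down with an m6A antibody (IP) and sequenced beside RNA that was not pulled down (input), and regions with more IP than input reads are called as peaks. The cells were E14 ESCs carrying a Dox-inducible Dux transgene and a tdTomato reporter driven by the Mervl promoter, kept for 24 h either with doxycycline (Dox), which switches the transgene on, or with DMSO, the solvent control. Both treatments used these same transgenic cells, grown in the same medium with leukemia inhibitory factor, and no parental line without the transgenes was in the comparison. Each treatment had 2 IP and 2 input libraries, 8 libraries in all, and their peaks come as 1 list per treatment, so that no value below has a replicate error and no test between the treatments was possible. Intervals are Wilson 95% intervals, they cover counting error only, and neighbouring peaks of a gene are not independent.

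DEAD-box proteins use ATP to open short RNA duplexes and to strip proteins from RNA, and DEAH-box proteins travel along a single strand and pull RNA-protein complexes apart. Both families are named after the amino acids of a conserved motif of the ATPase core, the DEAD or DEAH box, which in some members reads DEVD, DECD or DEVH. They act at nearly every step in the life of an RNA, from splicing and ribosome assembly to export, translation and decay. m6A is placed on mRNA by the Mettl3-Mettl14 complex at DRACH sequences (where D stands for A, G or T, R for A or G and H for A, C or T), of which GGAC is the most favoured core, and it is known to lie most often near stop codons and in long exons.

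Coding stretches of 5 helicase peaks are shown first because the findings below return to them. They were read 5′ to 3′ on the strand of the gene from GRCm38, without introns. The first is the best-scoring helicase peak of either list, over exons 16 and 17 of Ddx54 (chr5:120625702-120626039, plus strand). The second is the best-scoring Ddx17 peak, in exon 12 (chr15:79531672-79531795, minus strand), which was listed with the same ends after DMSO and after Dox. The third is the stretch of a Dhx8 peak in exon 6 that is richest in the motif (chr11:101738186-101738485, plus strand). Capitals mark GGAC.
Ddx54: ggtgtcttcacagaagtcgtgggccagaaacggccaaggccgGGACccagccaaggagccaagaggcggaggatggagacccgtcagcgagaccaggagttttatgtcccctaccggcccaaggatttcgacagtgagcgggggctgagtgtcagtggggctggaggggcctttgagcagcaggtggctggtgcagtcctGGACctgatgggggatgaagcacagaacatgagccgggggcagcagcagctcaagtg
Ddx17: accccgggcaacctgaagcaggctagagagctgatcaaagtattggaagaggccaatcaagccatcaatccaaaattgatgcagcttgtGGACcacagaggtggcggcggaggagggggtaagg
Dhx8: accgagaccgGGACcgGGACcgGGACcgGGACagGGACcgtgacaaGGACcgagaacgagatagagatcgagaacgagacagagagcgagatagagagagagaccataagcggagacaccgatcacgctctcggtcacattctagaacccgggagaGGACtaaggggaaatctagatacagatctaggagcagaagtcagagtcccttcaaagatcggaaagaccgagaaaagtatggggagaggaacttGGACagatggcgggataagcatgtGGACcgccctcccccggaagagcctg
The Dhx8 stretch holds 9 GGAC, most of them in a run of near-repeats at its 5′ end, the Ddx54 peak 2 and the Ddx17 peak 1. The next stretch holds a pair of peaks of 25 nt each in exon 12 of Ddx5 (chr11:106782567-106782641, minus strand), the closest paralogue of Ddx17, and capitals mark the peaks themselves, which were the same in both lists.
Ddx5: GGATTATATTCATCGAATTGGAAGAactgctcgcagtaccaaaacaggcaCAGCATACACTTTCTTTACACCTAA
It holds no GGAC, and neither peak held a whole DRACH. The stretch itself does hold DRACH, since GAACT runs over the 3′ edge of its first peak and AAACA lies between the peaks.

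Most of the helicase genes carried m6A peaks. A DMSO peak lay in the exons of 44 of the 52 genes, or 84.6% (72.5 to 91.99), where 27.8% of all protein-coding genes had one. A Dox peak lay in 40 of the 52, or 76.9% (63.9 to 86.3), against 22.3% of all. These 40 genes had peaks in both lists, against 21.6% of all genes, and the other 4 genes had DMSO peaks only, 7.69% (3.03 to 18.2) against 6.11%. Counted over genes with a DMSO peak, 40 of 44 helicase genes also had a Dox peak, 90.9% (78.8 to 96.4), against 78.00% of all such genes, so that on this base the DMSO-only share of the helicases was the smaller one. No helicase gene had a Dox peak and no DMSO peak (0 of 52, interval up to 6.88%), a class that held 0.682% of all genes. The helicase genes are longer than most, with a median of 5162 exonic bases against 3511, and a peak can be called only in an RNA that is present. Expression and read depth were not analysed here, so their part in these shares was not tested. In bulk RNA, fewer cells with a transcript and less transcript per cell cannot be told apart.

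The genes without a peak in either list were Ddx4, Ddx25 and Ddx43, which are germ-line helicases, Ddx60 and Dhx58 of the antiviral response, Ddx39, which encodes the mRNA export factor Ddx39a, Dhx34 of nonsense-mediated decay, and Dhx57. The genes with DMSO peaks only were Ddx1, Ddx31, Ddx49 and Ddx51. Their peaks were few, of 25 or 50 nt in Ddx1 and Ddx31 and of 100 to 200 nt in Ddx49 and Ddx51. The median length of all helicase DMSO peaks was 150 nt. Ddx1, which acts on double-stranded RNA and RNA-DNA hybrids, had 2 peaks over 75 nt in all, with scores of 14.2 and 11.4. The score of a peak is its −log10 p-value from the peak caller, and none was under 10 in either list. Ddx31 also had 2 peaks over 75 nt (best score 11.1), Ddx49 had 1 over 150 nt (10.9) and Ddx51 had 2 over 300 nt (10.8). Ddx31, Ddx49 and Ddx51 are nucleolar helicases of ribosome assembly.

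**Figure D1:**
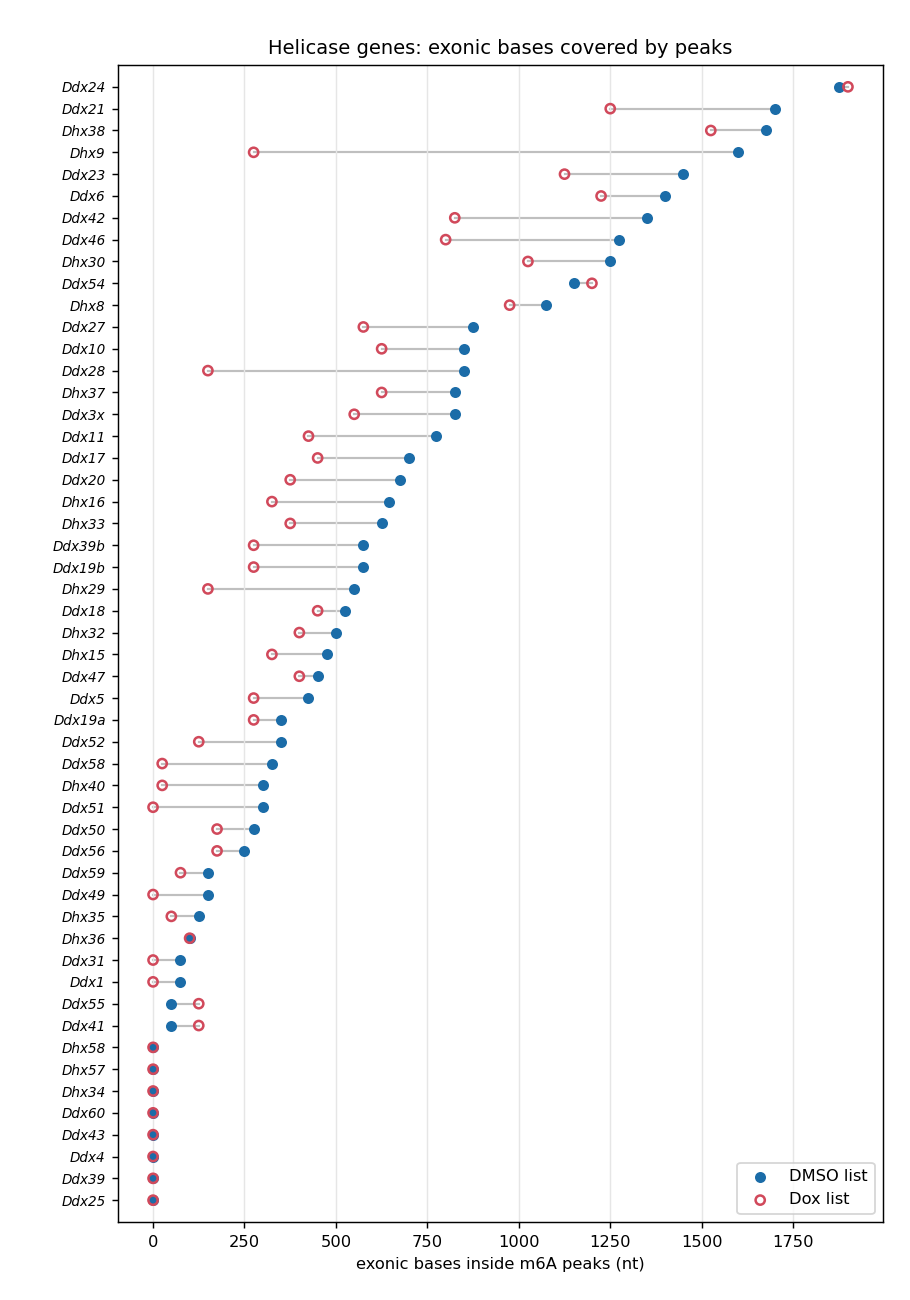
Exonic bases (nt, horizontal axis) inside m6A peaks for each of the 52 helicase genes (vertical axis, ordered by the DMSO value), with filled circles for the DMSO list, open circles for the Dox list and a grey line between the values of a gene. In 39 genes the DMSO value is the higher one, most of all for Dhx9 (1600 against 275 nt), in 4 genes the Dox value is higher, by at most 75 nt, and 8 genes stand at 0 in both.

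The labelled cell type was checked against marker genes. All 9 ESC markers searched (among them Pou5f1, Sox2 and Nanog) had peaks in both lists, markers of feeder fibroblasts had none (0 of 5), and of 8 genes of the 2-cell-like (2C-like) state 3 had a DMSO and 8 a Dox peak. The whole DMSO list held 18895 peaks and the whole Dox list 13001.

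Helicase genes carried 153 DMSO peaks and 113 Dox peaks, a ratio of 1.35 (1.06 to 1.73) beside 1.45 (1.42 to 1.49) for the whole lists. When only the 13001 best-scoring peaks of each list were kept, 105 DMSO and 113 Dox peaks were left on the helicase genes and the ratio was 0.929, where that of the whole lists is then 1 by construction. The peaks covered 30444 exonic bases after DMSO and 20425 after Dox, a ratio of 1.49 beside 1.47 over all protein-coding genes. Of the Dox bases 94.98% lay inside DMSO peaks, and of the DMSO bases 63.7% inside Dox peaks. Over all protein-coding genes the lists shared 2305929 bases, of 2465099 Dox and 3627518 DMSO bases, which come to similar shares. Among the 40 genes with peaks in both lists, more bases were covered after DMSO in 35, or 87.5% (73.9 to 94.5), where the share over all such genes was 85.7%.

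Peak by peak, 92 of 153 DMSO peaks had a Dox partner, that is a Dox peak that overlaps them, 60.1% (52.2 to 67.5) beside 56.95% for all DMSO peaks. Conversely 105 of 113 Dox peaks had a DMSO partner, 92.9% (86.6 to 96.4) beside 92.7%. Overlap was counted from 1 shared base on. When 50% of both peaks had to be shared the values were 46.4% and 62.8%, beside 42.5% and 61.8% for all peaks. There were 74 one-to-one pairs, in which neither peak met a further one. In 47 of these the DMSO peak was longer, in 8 the Dox peak, and in 19 the ends were identical, which is 63.5%, 10.8% and 25.7% (17.1 to 36.7) beside 68.9%, 10.9% and 17.5% of all such pairs. DMSO members of a pair had a median length of 200 nt and Dox members one of 150 nt.

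Peaks found only after DMSO were short and low in score, in the helicase genes as in the whole list. Their median length was 50 nt and their median score 10.9, where the DMSO peaks with a Dox partner had 212 nt and 12.3. All DMSO peaks gave 50 nt and 11.02 without and 200 nt and 12.2 with a partner. GGAC was present in 76.1% (66.4 to 83.6) of the DMSO peaks with a partner and in 34.4% (23.7 to 46.95) of those without, and all DMSO peaks gave 69.2% and 33.8%. Longer peaks hold more motifs by length alone, and this was not separated here. Only 8 Dox peaks had no DMSO partner, with a median of 37.5 nt and a score of 10.6.

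Which DMSO peaks had a Dox partner differed with their place on the transcript. Coding peaks whose middle lay in an exon under 400 nt had one in 36 of 80 cases, 45.00% (34.6 to 55.9), close to the 48.9% of all DMSO peaks of that kind. Coding peaks in exons of at least 400 nt had one in 29 of 33 cases, 87.9% (72.7 to 95.2), where all such DMSO peaks gave 64.5% (63.3 to 65.7). Peaks within 200 nt of the stop codon had one in 30 of 34 cases, 88.2% (73.4 to 95.3), against 66.4% (64.96 to 67.9). In these classes the helicase intervals lay above those of all peaks, although the classes overlap, the split was made after the data were seen, and the peaks of a gene are not independent. In short coding exons there were 80 DMSO and 45 Dox peaks, a ratio of 1.78 (1.24 to 2.56). Long coding exons held 33 in each list, a ratio of 1.000 (0.6201 to 1.61). For all peaks these ratios were 1.78 and 1.25, both inside the helicase intervals. Length went with overlap as well, from 5 of 26 DMSO peaks of 25 nt (19.2%) to 63 of 77 of 150 nt or more (81.8%, 71.8 to 88.8). For all DMSO peaks these shares were 13.6% and 86.6%, so that the long helicase peaks had a partner no more often than long peaks in general.

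**Figure D2:**
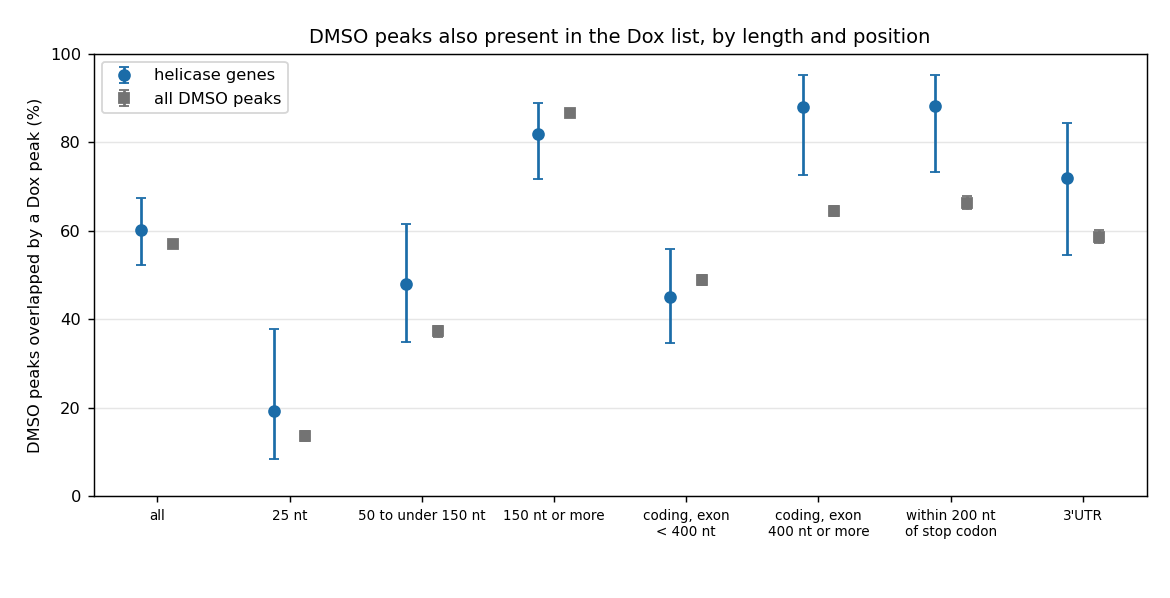
Percentage of DMSO peaks overlapped by a Dox peak (vertical axis) for peaks of the helicase genes (blue circles) and all DMSO peaks (grey squares), in classes of length and position (horizontal axis), with bars for Wilson 95% intervals. Helicase peaks stand above all peaks in long coding exons (87.9 against 64.5%) and near the stop codon (88.2 against 66.4%) and next to them in short coding exons (45.00 against 48.9%).

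On the transcript with the longest coding sequence of each gene, 148 DMSO and 110 Dox peaks could be placed. Of the DMSO peaks 76.4% (68.9 to 82.5) lay with their middle in the coding sequence, 21.6% in the 3′UTR and 2.03% in the 5′UTR, and of the Dox peaks 70.9% (61.8 to 78.6), 26.4% and 2.73%. The window of 200 nt to each side of the stop codon held 22.97% (16.9 to 30.4) of DMSO and 27.3% (19.8 to 36.3) of Dox peaks, beside 22.9% and 25.1% of all peaks, while it makes up 10.6% of the bases of these transcripts. The stop codon itself was covered in 26 genes after DMSO and in 20 after Dox. It was covered in both lists in 19 genes, only after DMSO in Ddx28, Ddx46, Ddx58, Dhx16, Dhx30, Dhx33 and Dhx40, and only after Dox in Dhx32, a helicase-like gene whose function is little known. The Dhx32 peak was 50 nt long with a score of 11.6. Covered stop codons were not counted over all protein-coding genes, so these gene counts have no background. The Dox list as a whole is the shorter one, with 13001 peaks against 18895. Helicase genes have few long coding exons, which hold 15.1% of their coding bases, and 29.2% (21.6 to 38.2) of their coding DMSO peaks and 42.3% (31.96 to 53.4) of their coding Dox peaks lay in them. Over all genes these shares were higher, 51.2% and 59.98%.

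**Figure D3:**
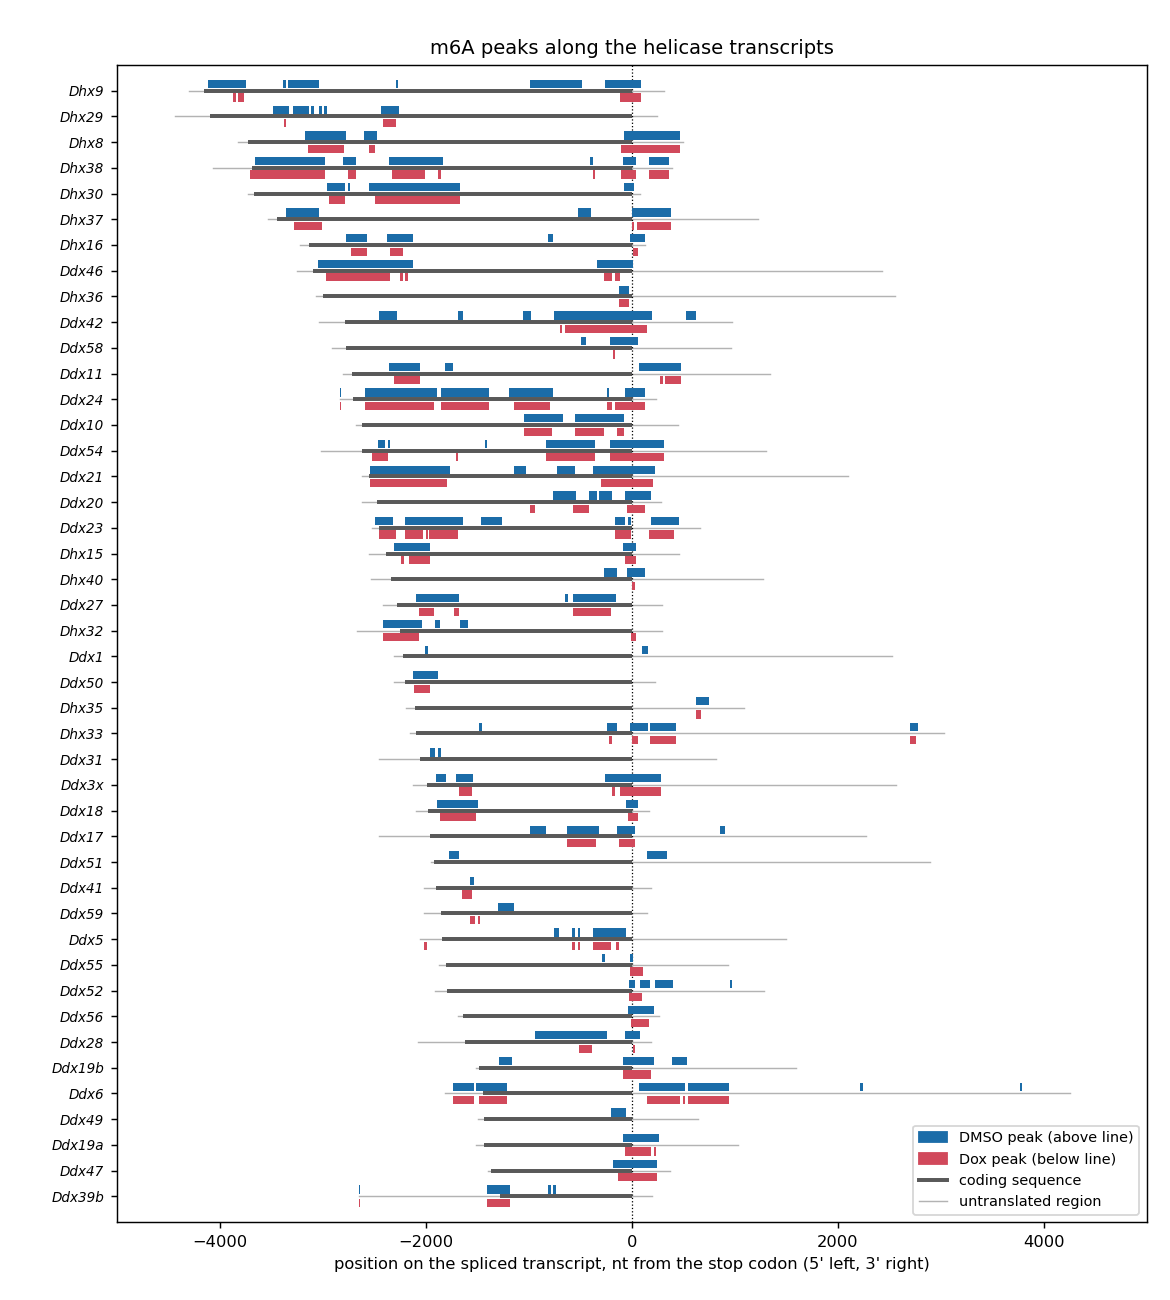
Peaks along the spliced transcripts of the 44 helicase genes with a peak (vertical axis, ordered by coding length), in nt from the stop codon (horizontal axis, dotted line at 0). Thick grey lines are coding sequence, thin lines untranslated regions, blue bars above the line DMSO peaks and red bars below it Dox peaks. Red bars lie under blue bars at most places, 19 genes have both over the stop codon, and Dhx9 shows blue bars with no red partner along its coding sequence.

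GGAC was searched on the strand of the gene in the exon blocks of each peak. It was present in 91 of 153 DMSO peaks, 59.5% (51.6 to 66.9) beside 53.98% of all, and in 66 of 113 Dox peaks, 58.4% (49.2 to 67.1) beside 55.8%. Among peaks of 75 to 150 nt it was present in 60.00% of the 45 helicase DMSO and 69.2% of the 26 helicase Dox peaks. All peaks of that length gave 49.97% and 52%. These helicase shares rest on few peaks, and their difference from all peaks was not tested. Seen from the transcripts, 194 of their 831 GGAC sites lay inside DMSO peaks, 23.3% (20.6 to 26.3), while 15.4% of their bases did. Of the reverse complement GTCC, 72 of 593 sites did, 12.1% (9.75 to 15.02). Inside Dox peaks lay 17.8% (15.4 to 20.6) of the GGAC and 8.600% of the GTCC sites and 10.4% of the bases. DRACH gave the opposite order. It was present in 82.4% (75.5 to 87.6) of the DMSO and 76.99% (68.4 to 83.8) of the Dox helicase peaks, and in 84.8% and 85.3% (84.7 to 85.9) of all peaks, so that the Dox share of the helicases lay below that of the whole list. Of the helicase peaks of 25 nt, 7 of 26 after DMSO (26.9%, 13.7 to 46.1) and 9 of 28 after Dox (32.1%, 17.9 to 50.7) held a DRACH, where 43.9% and 45.1% of all 25-nt peaks did. Such short peaks made up 24.8% (17.7 to 33.5) of the helicase Dox peaks and 16.5% of all Dox peaks.

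The DEAD-box helicases of splicing all carried peaks in both lists, 33 DMSO and 27 Dox peaks over 7 genes. Of all 52 helicase genes 84.6% had a DMSO and 76.9% a Dox peak, beside 27.8% and 22.3% of all protein-coding genes. Whether a role group differs from the other helicases was not tested. Ddx5 and Ddx17, paralogues that act in alternative splicing and in microRNA processing, have 79.01% identical residues in their proteins. Ddx5 had 4 DMSO and 5 Dox peaks over 425 and 275 nt, and Ddx17 5 and 3 peaks over 700 and 450 nt. In both genes peaks lay in the exon before the last, and the 25-nt Ddx5 peaks shown above stood at -515 and -565 nt and the Ddx17 peak at -565 nt from the stop codon. These distances run from each gene's own stop codon, and whether the sites correspond between the paralogues was not examined. The Ddx17 peak scored 24.4 after DMSO and 25.96 after Dox. The Ddx5 peak at -515 nt scored 25.4 after DMSO and 12.01 after Dox, whereas in exon 13 a Ddx5 peak scored 12.9 after DMSO (325 nt) and 25.6 after Dox (175 nt). The top Ddx5 score thus stood at different places in the lists. A 25-nt Ddx5 peak in the 5′UTR (11.5) was found only after Dox, and a 50-nt Ddx17 peak in the 3′UTR (15.2) only after DMSO. That exon 13 peak and the weaker exon 12 peak of Ddx5 each had a near-identical locus elsewhere in the genome (at least 90% of the peak at 98% identity), to which reads could also align.

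Ddx23, the Prp28 helicase of the spliceosome, had the most peaks of any member, 10 after DMSO and 8 after Dox, over 1450 and 1125 nt. Its best-scoring DMSO peak, around exon 4 of 17 with 4 GGAC, scored 20.1 after DMSO and 14.4 after Dox with the same ends. A 50-nt Ddx23 peak in the 5′UTR was the best-scoring helicase peak found only after DMSO (17.8). In the other direction a Ddx23 peak over exon 7 scored 11.8 after DMSO and 19.6 after Dox. Ddx46, the Prp5 helicase, had 2 long DMSO peaks (925 and 350 nt) that were met by 3 and 2 shorter Dox peaks, with 1275 and 800 nt covered. In Ddx42, which associates with the U2 snRNP, 1 of the 5 DMSO peaks was met by Dox peaks, and 1350 and 825 nt were covered. Ddx39b, a helicase of splicing and export, had 6 and 2 peaks over 575 and 275 nt, while its paralogue Ddx39, with 91.5% identical residues, had none. In Ddx39b the same 225-nt peak with 4 GGAC over the start codon scored 20.1 after DMSO and 12.2 after Dox. Ddx41 had 50 nt covered after DMSO and 125 nt after Dox, and its 100-nt Dox peak with a score of 10.98 had no DMSO partner.

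The DEAH-box helicases of splicing were also in both lists throughout, with 16 DMSO and 17 Dox peaks over 5 genes. Over all helicase genes the shares were 84.6% and 76.9%. Dhx38 (Prp16), which drives the second step of splicing, had 6 and 7 peaks over 1675 and 1525 nt, 33.7% and 30.7% of its exonic bases, and 16 GGAC in its DMSO peaks were the most of any member. Dhx8 (Prp22), which releases the spliced mRNA, had 3 peaks in each list over 1075 and 975 nt. The motif-rich Dhx8 peak shown above scored 11.2 after DMSO and 11.9 after Dox, although its peak over the stop codon scored 17.2 after DMSO and 11.4 after Dox. Dhx15 (Prp43), which takes apart spent spliceosomes, had 2 and 3 peaks. A 350-nt DMSO peak of Dhx15 with a score of 12.4 was met by 2 Dox peaks, of which a 25-nt one without a DRACH scored 22.8, the highest Dox score among the DEAH-box genes. Dhx16 had 644 and 325 nt covered and Dhx35 125 and 50 nt.

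The helicases of ribosome biogenesis were the largest group. All 15 had DMSO peaks and 12 had Dox peaks, 49 and 34 in number, over 10050 and 7825 nt. A DMSO peak was found in 84.6% and a Dox peak in 76.9% of all helicase genes, and in 27.8% and 22.3% of all protein-coding genes. Ddx54 held the best-scoring helicase peak of both lists, shown above, with 41.04 after DMSO (rank 114 of the list) and 34.5 after Dox (rank 91) and the same ends. It had 7 and 6 peaks over 1150 and 1200 nt, with the same 525-nt peak over the stop codon in both lists. Ddx24 had the most bases covered of any member, 1875 and 1900 nt, and its 6 DMSO peaks were all met by a Dox peak. Ddx54, Ddx24, Ddx41 and Ddx55 (50 and 125 nt) were the only members with more bases covered after Dox.

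Ddx21, which acts on ribosomal RNA genes and pre-rRNA, had 5 DMSO and 2 Dox peaks over 1700 and 1250 nt. Its long peaks over exon 2 (775 and 750 nt, scores 20.7 and 14.4) and over the stop codon (600 and 500 nt, 12.03 and 13.2) stood in both lists. Between them, Ddx21 peaks of 50, 100 and 175 nt with scores of 17.3, 14.4 and 11.7 were found only after DMSO. Ddx50, its paralogue with 69.4% identical residues, had 275 and 175 nt covered, and the peak the lists shared had a near-identical locus elsewhere. The other members of the group with over 500 nt after DMSO were Ddx27 (875 and 575 nt), Ddx10 (850 and 625 nt), Dhx37 (825 and 625 nt), Dhx33 (625 and 375 nt) and Ddx18 (525 and 450 nt). Ddx18 and Ddx47 had higher scores over the stop codon after Dox, 17.3 against 11.9 and 16.2 against 12.96, while Dhx37 near its start codon had 11.5 against 18.3.

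**Figure D4:**
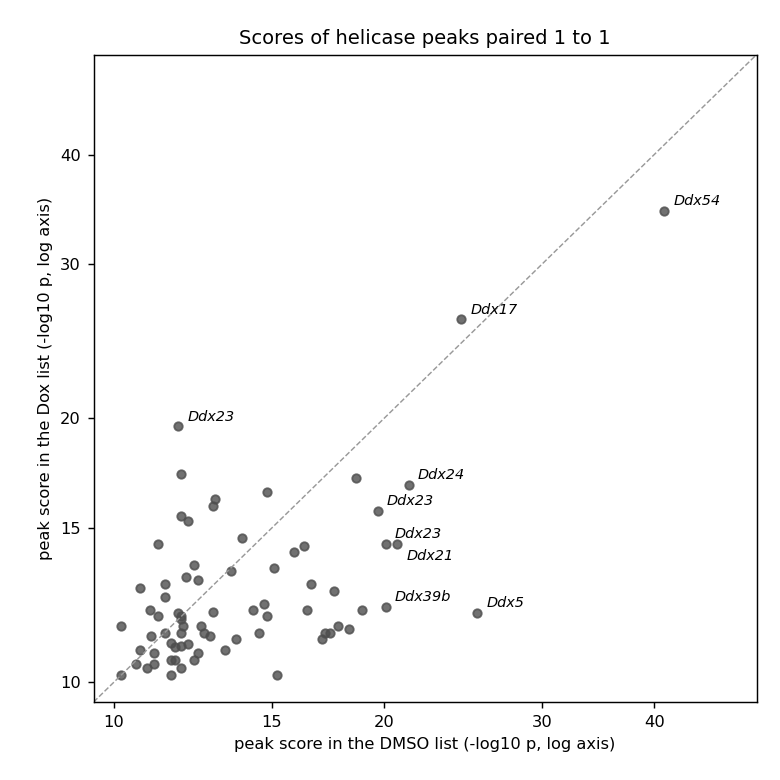
Score (−log10 p as given by the authors) after DMSO (horizontal axis) and after Dox (vertical axis) of the 74 helicase peaks that pair with exactly 1 peak of the other list, on log axes, with a dashed line where they are equal and gene names where a score reaches 19. Most points lie between 10 and 20, Ddx54 and Ddx17 stand near the line at the top, and Ddx5 lies far below it (25.4 against 12.01).

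Scores rank peaks within a list, and they also move with read depth. By percentile within its own list the Dox peak stood higher in 26 of these 74 pairs, 35.1% (25.2 to 46.5), beside 37.96% of all such pairs. Over all helicase peaks the median percentile was 55.7 in the DMSO and 53.4 in the Dox list, so that as a group they scored near the middle of each list.

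Of the mRNA export helicases, Ddx19a and Ddx19b lie side by side on chromosome 8 and have 94.5% identical residues. Each had a peak over the last junction and the stop codon in both lists, and the scores ran in opposite ways. The Ddx19a peak scored 11.4 after DMSO and 21.5 after Dox, and the Ddx19b peak 17.8 after DMSO and 11.6 after Dox. The ends of the coding sequences are shown because the genes cannot be told apart there, with the stop codon in capitals (Ddx19a, chr8:110976029-110976429; Ddx19b, chr8:111008250-111008650, minus strand).
Ddx19a: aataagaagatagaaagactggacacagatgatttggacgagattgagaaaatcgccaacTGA
Ddx19b: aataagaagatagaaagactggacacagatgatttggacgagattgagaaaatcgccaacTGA
All 88 coding bases that the DMSO peaks shared, counted back from the stop codon, were the same in both genes, and so were the 67 of the Dox peaks. How the reads were shared out between the copies is not given in the sources used here, and the scores of this pair are therefore uncertain. Without peaks that have a near-identical locus, Ddx19a would have no DMSO peak, and Ddx19a, Ddx19b and Ddx50 no Dox peak.

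Of the helicases of translation and mRNA turnover, Ddx6, which represses translation and promotes decapping, had 6 and 5 peaks over 1400 and 1225 nt. A 400-nt Ddx6 peak in the 3′UTR had the same ends in both lists, with scores of 18.6 and 17.1. Ddx3x, an X-linked helicase of translation initiation, had 3 peaks in each list over 825 and 550 nt, and Dhx29, which helps ribosomes scan structured leaders, had 6 and 2 peaks over 550 and 150 nt. Of the RNA sensors only Ddx58 (RIG-I) had peaks, with 325 nt covered after DMSO and 25 nt after Dox.

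The mitochondrial helicases had 8 DMSO and 5 Dox peaks. Dhx30, which acts on the mitochondrial ribosome, had 6 and 3 peaks over 1250 and 1025 nt, and its 850-nt peak had the same ends in both lists (scores 11.9 and 11.9). Ddx28 is a gene of a single exon, and its 700-nt DMSO peak was met by a 125-nt Dox peak, so that 850 and 150 nt were covered in all.

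Dhx9, which unwinds RNA duplexes, RNA-DNA hybrids and G-quadruplexes, showed the largest difference of all members. It had 8 DMSO peaks over 1600 nt and 3 Dox peaks over 275 nt. Of the DMSO peaks 6 had no Dox partner, among them one of 500 nt around exon 27 (score 12.7) and one of 300 nt around exon 10 (11.3). The others were of 25 nt (10.6 and 10.2), 75 nt (10.6) and 150 nt (11.5), where the lowest score of the list is 10. A Dox partner was found for 60.1% of all helicase DMSO peaks and for 56.95% of all DMSO peaks. What the lists shared was the peak over the stop codon (350 and 200 nt, scores 14.3 and 12.1) and a 175-nt DMSO peak around exon 4 of 28 (13.97), met by Dox peaks of 50 and 25 nt (10.7 and 10.6). Dhx36, the other G-quadruplex helicase of the list, had the same 100-nt peak in both. After Dhx9, the largest differences were those of Ddx28, Ddx42, Ddx46 (1275 and 800 nt) and Ddx21.

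Of the remaining members, Ddx20 of the SMN complex, which assembles spliceosomal snRNPs, had 675 and 375 nt covered, and its peak over the stop codon scored 11.9 and 15.5. Ddx11, a DNA helicase of sister chromatid cohesion, had 775 and 425 nt. Dhx32 (500 and 400 nt), Dhx40 (300 and 25 nt) and Ddx59 (150 and 75 nt) were in none of the role lists, and the Ddx59 peaks of the lists did not overlap.

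Few genes had a peak over the codons of the box itself. A DMSO peak covered them in Ddx24, Ddx28 and Dhx30 (3 of 52 genes, 5.77%, 1.98 to 15.6) and a Dox peak in Dhx30 (1 of 52, 1.92%, 0.3403 to 10.1). Of all bases of these transcripts 15.4% lay inside DMSO and 10.4% inside Dox peaks. The DMSO interval reaches the first of these shares, while the Dox interval ends at 10.1%, just below the second. A stretch of 4 codons meets a peak more readily than a single base does, so these shares are not a like measure. Whether the box differs from other stretches was not tested. The box was taken as the first DEAD or DEAH of the protein, or else the first DE followed by any residue and D or H, and this rule gave DEAD in 28 genes, DEAH in 9 and another form in the rest. In Dhx29 (counted under DEAD) and Ddx58 it finds sites at residues 1118 and 200, which are not those of the ATPase core. In Dhx32 it finds DEMD at residue 139, 42 residues after the nearest GKT or GKS triplet. An alternative rule, chosen after the data were seen, took a box 60 to 140 residues after such a triplet and found none in Dhx32. By that rule 2 genes had a DMSO and 1 a Dox peak over the box. Ddx24, whose DEAD stands 228 residues after the nearest triplet, was then not counted. The 3 stretches over the box of the first rule are shown with the box codons in capitals (Ddx24, chr12:103417745-103418074, over the junction of exons 4 and 5; Ddx28, chr8:106010534-106010593; Dhx30, chr9:110087649-110087708, all minus strand).
Ddx24: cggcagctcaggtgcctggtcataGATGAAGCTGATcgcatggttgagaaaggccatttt
Ddx28: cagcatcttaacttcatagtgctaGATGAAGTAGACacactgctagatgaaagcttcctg
Dhx30: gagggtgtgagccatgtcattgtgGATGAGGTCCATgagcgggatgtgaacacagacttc
None of these stretches holds GGAC. In Ddx24 the Dox peak of the same exon stood 9 nt from the codons, and in Ddx28 the Dox peak stood 238 nt away. Peaks within 100 nt of the box codons were found in 7 genes after DMSO and in 2 after Dox, and no peak over the codons had a score of at least 15 in either list (0 genes). The 7 genes include Dhx32, with a peak 24 nt from its DEMD.

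RNA helicases whose symbols do not begin with Ddx or Dhx had peaks in 13 of 22 genes in each list. Of all protein-coding genes 27.8% had a DMSO and 22.3% a Dox peak. These other helicases carried 76 DMSO and 48 Dox peaks over 12775 and 8150 nt, beside 18895 and 13001 peaks in the whole lists. Among them were Dicer1 (12 and 9 peaks) and Snrnp200, which unwinds U4 from U6 in the spliceosome (9 and 3). Those without a peak were Skiv2l, Ascc3, Mov10l1, Ythdc2, Tdrd9, Ifih1, Helz2, Dqx1 and Hfm1.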

How the data were processed

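The authors filtered the reads, aligned them to mm10 and called m6A peaks with exomePeak2 from the IP and input libraries of each treatment. Per the submitters' processing notes fastp 0.19.4 and HISAT2 2.2.1 were used, and the version of exomePeak2 is not given in the sources used here. The deposited lists, 1 per treatment, give the exon blocks of each peak and a score, the −log10 p-value of the peak as the authors wrote it. How the replicates were combined and whether the p-value was adjusted is not given there. No read counts were in the lists, so the depth behind a peak is unknown.

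Peaks were joined to GENCODE M21 exons on the same strand from 1 shared base on (Python 3.11.15). The blocks fitted that annotation, with 99.8% of inner block edges at exon edges in each list. Position, motifs and box codons were read on the transcript with the longest coding sequence. Near-identical loci were searched with BLAST+ 2.17.0. The joins were tested on simulated data, where all 1000 peaks were recovered. Groups came from the treatment labels. The members, role lists and classes were chosen with earlier results of these data known. Full values were given for the 10 genes with most covered DMSO bases, for up to 5 genes per direction with the largest difference in covered bases, for genes in 1 list only, for the 3 best-scoring peaks and list-only peaks of each list, for 4 paralogue pairs and for up to 2 genes per role. Single peaks beyond these were picked after their values were seen. One further helicase outside the families and the sequence of one further peak are not reported here.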

Additional observations from a re-analysis of the deposited data

How the results depend on the processing

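Of 43 alternatives over 11 results, 23 left the value within its counting interval or within 1.5 times the count, 19 moved it and 1 took a ratio to the other side of 1. With lists of equal size the ratio of DMSO to Dox peaks on helicase genes was 0.929, beside 1 for the whole lists by construction, against 1.35 beside 1.45 with the lists as deposited. At a score of at least 15, 12 genes had DMSO and 14 Dox peaks, and 0 genes in either list had one over the box codons. With 50% of both peaks required to overlap, 46.4% of DMSO and 62.8% of Dox peaks had a partner, beside 42.5% and 61.8% of all peaks. With equal lists the shares were 76.2% and 84.1%, beside 71.1% and 81.5% of all peaks. For the better-scoring 50% of the helicase peaks of each list they were 81.6% and 100%. Without peaks of 25 nt 68.5% of DMSO peaks had a partner. Windows of 100 and 400 nt around the stop codon held 16.2% and 34.5% of DMSO peaks, and the 400-nt window 40.9% of Dox peaks. With DRACH in place of GGAC 82.4% of DMSO and 76.99% of Dox peaks held the motif. Of the 26 Dox peaks of 75 to 150 nt, 69.2% held GGAC. Within 100 nt of the box codons, 7 genes had DMSO and 2 had Dox peaks, with Dhx32 in the DMSO count. With the box taken 60 to 140 residues after GKT or GKS, 2 genes had a DMSO and 1 a Dox peak over it. Apart from changes that follow from a setting's own construction, the cause was not tested. Of these alternatives 7 were chosen after seeing the data, of which 6 left the value within its counting interval or within 1.5 times the count. No paired analysis was possible because the replicates of a treatment are combined in 1 list, and for the same reason no replicate could be left out.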
